A study of Homo sapiens with 21 samples.

Results

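The genes described here are 10 members of bone morphogenetic protein (BMP) signalling: the ligands BMP2, BMP4 and BMP7, the inhibitors SMAD6, SMAD7 and BAMBI, and the ID genes ID1, ID2, ID3 and ID4. They were taken by gene symbol from the platform annotation and were 10 of the 18132 genes that the arrays measured with a probe set of 1 symbol. The study exposed 4 human breast cancer cell lines to THZ1, a covalent inhibitor of the kinase CDK7, for 6 h at 50 or 250 nM, with the solvent DMSO as control. MDA-MB-468 and BT-549 are labelled triple-negative, ZR-75-1 oestrogen receptor positive, and T47D oestrogen and progesterone receptor positive. All cells were grown in the same serum-containing medium. MDA-MB-468, ZR-75-1 and T47D each had 2 arrays at 50 nM, 2 at 250 nM and 2 in DMSO, and BT-549 had 1 array for each. Whether the 2 arrays of a group stem from separate cultures is not in the labels. The error used in the p-values below is the spread between such arrays, which may be technical. Only the fit over all 4 lines differs: its error is the spread of group means that line and dose leave over. In these bulk samples, fewer cells of a kind and less RNA per cell cannot be told apart.

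BMP ligands bind a complex of serine/threonine kinase receptors, which phosphorylates SMAD1, SMAD5 and SMAD9. These enter the nucleus with SMAD4 and bind DNA at the genes they regulate. ID1, ID2 and ID3 are the best known direct targets, and their proteins bind E proteins of the basic helix-loop-helix (bHLH) family and keep them off DNA. SMAD6, SMAD7 and BAMBI are targets too and act back on the pathway as inhibitors. In breast cancer, ID proteins have been studied for their part in proliferation and metastasis. CDK7 belongs to the general transcription factor TFIIH and phosphorylates the tail of RNA polymerase II.

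The windows just upstream of the start sites of SMAD6, BAMBI, ID3 and ID1 are printed here because these genes differ in how far they fell and in which SMAD-related letters the windows hold. Since the choice used both, no link between fall and letters can be read from it. The sequences are from RefSeq on build GRCh38.p14, run 5′ to 3′ on the strand of the gene, and cover the 250 bases before the annotated start. Capitals mark 3 motifs searched on both strands: GTCTAGAC, the palindromic SMAD binding element; CAGAC, its shorter form, written GTCTG where it lies on the other strand; and GGCGCC, a GC-rich element bound by SMAD1 and SMAD5. No marked site overlaps another in these windows.
SMAD6, chr15:66701986-66702235, plus strand: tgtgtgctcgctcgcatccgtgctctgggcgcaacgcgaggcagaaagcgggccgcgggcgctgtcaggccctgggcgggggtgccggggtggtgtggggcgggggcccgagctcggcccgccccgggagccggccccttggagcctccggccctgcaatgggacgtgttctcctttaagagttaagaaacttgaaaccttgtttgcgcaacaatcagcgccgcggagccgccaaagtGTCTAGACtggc
BAMBI, chr10:28677271-28677520, plus strand: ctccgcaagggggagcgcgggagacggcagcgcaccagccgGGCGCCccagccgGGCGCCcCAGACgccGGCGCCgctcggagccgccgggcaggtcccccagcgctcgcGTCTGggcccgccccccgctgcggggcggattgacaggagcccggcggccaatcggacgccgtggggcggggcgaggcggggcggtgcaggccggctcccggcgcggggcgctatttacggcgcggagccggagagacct
ID3, chr1:23559502-23559751, minus strand: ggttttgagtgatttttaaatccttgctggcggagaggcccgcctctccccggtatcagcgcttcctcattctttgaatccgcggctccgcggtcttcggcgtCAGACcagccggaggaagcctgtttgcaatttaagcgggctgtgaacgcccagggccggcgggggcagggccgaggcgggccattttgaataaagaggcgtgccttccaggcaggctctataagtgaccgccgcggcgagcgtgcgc
ID1, chr20:31605039-31605288, plus strand: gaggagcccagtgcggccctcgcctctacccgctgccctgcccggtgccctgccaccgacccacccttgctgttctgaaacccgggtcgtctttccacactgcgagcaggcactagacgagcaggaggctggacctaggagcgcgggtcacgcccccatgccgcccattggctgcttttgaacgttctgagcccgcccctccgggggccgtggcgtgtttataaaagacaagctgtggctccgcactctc

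The SMAD6 window held GTCTAGAC from 12 to 5 bases before the start. This motif was present in 0.182% of the 35116 promoter windows of the same length in the RefSeq table. BAMBI held 3 copies of GGCGCC, beginning 209, 196 and 181 bases before the start, and 0.527% of all windows held 3 or more. BAMBI also held CAGAC at 189 and 140 bases before the start, and ID3 held it at 147, against 38.0% of all windows with at least 1 copy. The ID1 window held none of the 3 motifs, and bases further upstream were not searched for any gene. Of the 10 genes, 8 had an entry, with 12 windows in all since BMP4 and SMAD7 have several starts. CAGAC also occurred upstream of ID4 (205 bases), in 2 BMP4 windows (181 and 46 bases) and in 2 SMAD7 windows, and GGCGCC occurred at 232 bases upstream of 1 BMP4 start. ID2 held none. GGCGCC was present in 16.4% of all windows. A match describes letters and does not show that a factor binds there.

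The arrays reported MAS5 intensities, in arbitrary units, whose mean over all probe sets was between 326 and 343 on every array. Log2 values of the 2 arrays of a group correlated at r of 0.991 to 0.993 across probe sets. The mean log2 value of 23 background control probe sets lay between 4.56 and 4.97 on the arrays, and a gene is called near background where it did not exceed this on its own array, a rough limit because these control probe sets themselves spread widely. Line labels were checked against markers: in DMSO, ESR1 read 29.1 and 32.6 in MDA-MB-468 and 18.4 in BT-549, against 448 and 435 in ZR-75-1 and 928 and 885 in T47D. EGFR read 4216 and 4319 in MDA-MB-468, and VIM read 14442 in BT-549. Not all markers parted the lines so clearly. The luminal KRT8 read 6528 and 6179 in MDA-MB-468, against 9536 and 8854 in T47D, and KRT18 read 10050 and 9572, against 14114 and 13672. GATA3 and FOXA1 were also above background in MDA-MB-468, though far below ZR-75-1 and T47D. In BT-549 the basal markers EGFR and KRT5 read 235 and 41.7. For ZR-75-1 and T47D arrays, 1 label field names MDA-MB-468, while titles and the cell line field give the line used here. ESR1 and EGFR set these arrays apart from MDA-MB-468 but do not name the line. PGR, the progesterone receptor gene, read 459 and 400 in ZR-75-1 and 5053 and 5109 in T47D in DMSO. PTPRC, the marker of blood cells, was not above background on any of the 21 arrays. The 6 immune and stromal markers measured, 4 or 5 of them above background, summed to between 216 and 476 on each array.

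At 250 nM most of the genes fell in each replicated line. In MDA-MB-468, 8 of the 10 fell and none rose, against 30.3% of the 12644 tested genes lower and 9.54% higher. The median log2 change was -1.51 for the 10 genes and -0.07 for all tested genes. ZR-75-1 had 6 lower and 1 higher, against 42.8% lower and 9.93% higher among all genes, with medians of -0.45 and -0.18. T47D had 6 lower and 1 higher, against 33.7% and 9.61% of all genes, with medians of -1.05 and -0.08. These counts use limma across all tested genes at a Benjamini-Hochberg adjusted p under 0.05, and the 50 and 250 nM comparisons of a line share its DMSO arrays. With each array centred on its median, which puts the median change of all genes above 0 (0.14, 0.08 and 0.05 in MDA-MB-468, in ZR-75-1 and in T47D), the counts of the 10 genes stayed at 8 lower and none higher in MDA-MB-468 and at 6 and 1 in T47D. In ZR-75-1 they became 3 lower (BAMBI, SMAD6 and BMP4) and 3 higher, of which ID4 and BMP2 were near background on all arrays and ID2 was not. All tested genes then split into 2745 lower and 3479 higher in MDA-MB-468, 3986 and 3625 in ZR-75-1, and 3279 and 2453 in T47D. In BT-549, with 1 array per condition and no test, 8 of the 10 were at least 2-fold lower at 250 nM and none was 2-fold higher, against 8.94% and 0.182% of all genes.

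At 50 nM few of the genes moved. MDA-MB-468 had 3 lower and 1 higher (14.6% and 4.42% of all genes), ZR-75-1 had 1 of each (5.68% and 2.79%), and T47D had 1 lower and none higher (7.56% and 1.99%). In BT-549, 1 gene, BMP4, was at least 2-fold lower (3.24% of all genes) and none was 2-fold higher (0.174%). Between the doses, 9 genes were lower at 250 than at 50 nM in MDA-MB-468 (23.2% of all genes lower), 6 in ZR-75-1 (41.7%) and 6 in T47D (27.2%). ID2 in T47D was the 1 gene higher at 250 than at 50 nM, where 4.59% of all genes were higher; none of the 10 was higher in MDA-MB-468 (5.73%) or ZR-75-1 (6.64%).

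The arrays themselves can be set side by side without a test. Both 250 nM arrays lay below both DMSO arrays for 8 of the 10 genes in MDA-MB-468 and above them for none, where 42.3% of all genes lay below and 23.9% above. In ZR-75-1 this held for 7 below and 1 above (52% and 19.2% of all genes), and in T47D for 7 below and 1 above (46.4% and 26%). At 50 nM the counts were 7 below and 1 above DMSO in MDA-MB-468 (39% and 22.8%), 1 and 4 in ZR-75-1 (25.1% and 22.4%), and 3 and 3 in T47D (33.8% and 21.8%). Between the doses, both 250 nM arrays lay below both 50 nM arrays for 9 genes and above for none in MDA-MB-468 (36.5% and 29.7%), for 6 and 1 in ZR-75-1 (52.7% and 17%), and for 7 and 1 in T47D (41.7% and 23.9%).

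**Figure D1:**
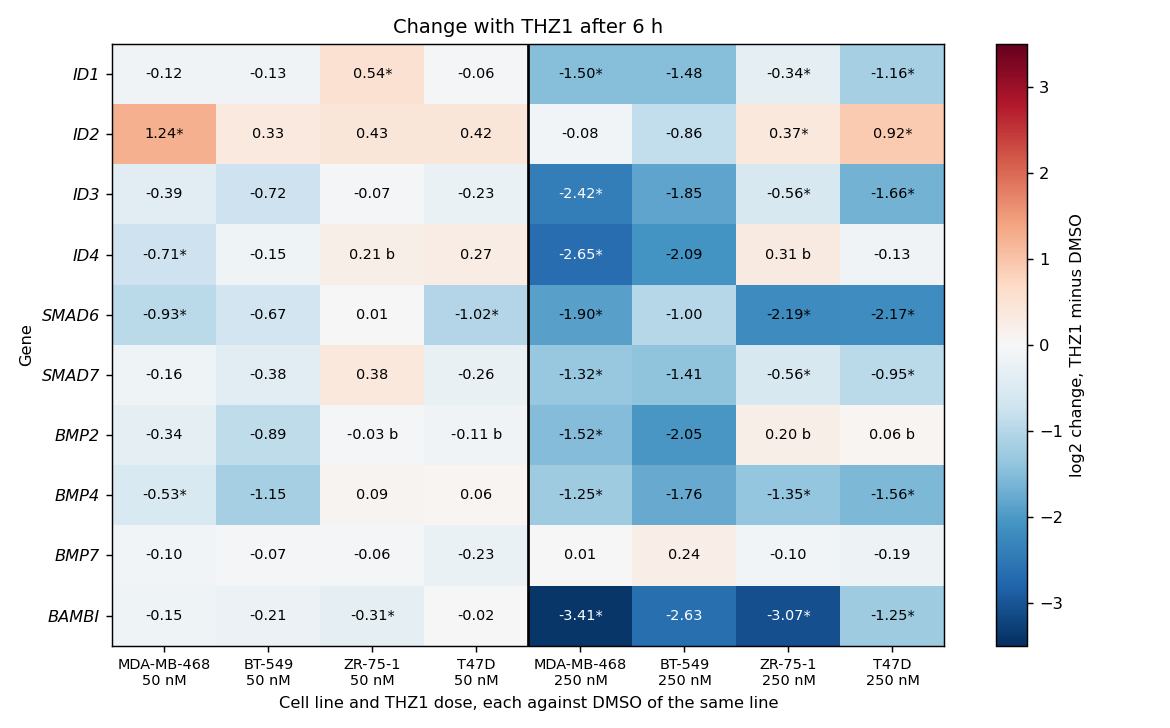
Log2 change of each of the 10 genes (rows) at 50 nM (left block) and 250 nM THZ1 (right block) against DMSO of the same line (columns). Asterisks mark an adjusted p under 0.05 by limma, the letter b marks genes near background in both groups, and BT-549 has 1 array per condition and no test. BAMBI reached -3.41 in MDA-MB-468 at 250 nM, while BMP7, in the probe set used, lay between -0.19 and 0.24 at 250 nM in the 4 lines and ID2 was 1.24 in MDA-MB-468 at 50 nM.

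Among the ligands, BMP4, which signals through SMAD1, SMAD5 and SMAD9, fell in all 3 replicated lines at 250 nM. In MDA-MB-468 its intensities were 116 and 112 in DMSO, 80.2 and 77.3 at 50 nM, and 50.5 and 45.3 at 250 nM. Those of ZR-75-1 were 192 and 183 in DMSO, 201 and 197 at 50 nM, and 75.5 and 71.5 at 250 nM, and those of T47D were 365 and 358 in DMSO, 381 and 371 at 50 nM, and 116 and 130.1 at 250 nM. The 250 nM arrays lay below the DMSO arrays in each line, and 50 nM arrays lay below DMSO in MDA-MB-468 and above both DMSO arrays in ZR-75-1 and T47D. The log2 change at 250 nM was -1.25 ± 0.09 (SE) in MDA-MB-468 (adjusted p = 7.64e-09), -1.35 ± 0.09 in ZR-75-1 (adjusted p = 1.56e-09) and -1.56 ± 0.09 in T47D (adjusted p = 1.2e-09). At 50 nM it fell by 0.53 on the log2 scale in MDA-MB-468 (adjusted p = 0.000428), with 0.09 in ZR-75-1 and 0.06 in T47D, which missed the threshold (adjusted p = 0.639 and 0.78). BT-549 had 852 in DMSO, 383 at 50 nM and 252 at 250 nM, so its value was already 2.23-fold lower at 50 nM.

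BMP2, a closely related ligand, was measured above background in the triple-negative lines. MDA-MB-468 intensities were 240.3 and 231 in DMSO, 183 and 188 at 50 nM, and 85.5 and 78.4 at 250 nM, a series in which each dose lay below the one before. The change at 250 nM was -1.52 ± 0.17 (adjusted p = 2.33e-06), and its other probe set gave -2.56 (adjusted p = 4.59e-09). At 50 nM the change was -0.34 (adjusted p = 0.189). BT-549 had 125 in DMSO, 67.6 at 50 nM and 30.4 at 250 nM, 4.13-fold lower at 250 nM than in DMSO. All 12 arrays of ZR-75-1 and T47D were near background, so no change can be read there.

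BMP7, a ligand of another branch of the family, was brightest in ZR-75-1. Its intensities there were 4022 and 4154 in DMSO, 4147 and 3709 at 50 nM, and 3841 and 3769 at 250 nM, with the 250 nM arrays just below DMSO and within the range of the 50 nM arrays. The change was -0.10 ± 0.16 at 250 nM (adjusted p = 0.622) and -0.06 ± 0.16 at 50 nM (adjusted p = 0.893). The other probe set of BMP7 disagreed: it read 469.8 and 515 in DMSO, 303 and 281 at 50 nM, and 106 and 103 at 250 nM. It fell by 0.75 on the log2 scale at 50 nM (adjusted p = 0.00703) and by 2.24 at 250 nM (adjusted p = 4.24e-09). Which of the probe sets follows the BMP7 transcript was not tested. BT-549 read 98.5 in DMSO, 94.1 at 50 nM and 116 at 250 nM, while MDA-MB-468 and T47D arrays were at 35.9 or less, close to background, and 2 of the T47D arrays were not above it.

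**Figure D2:**
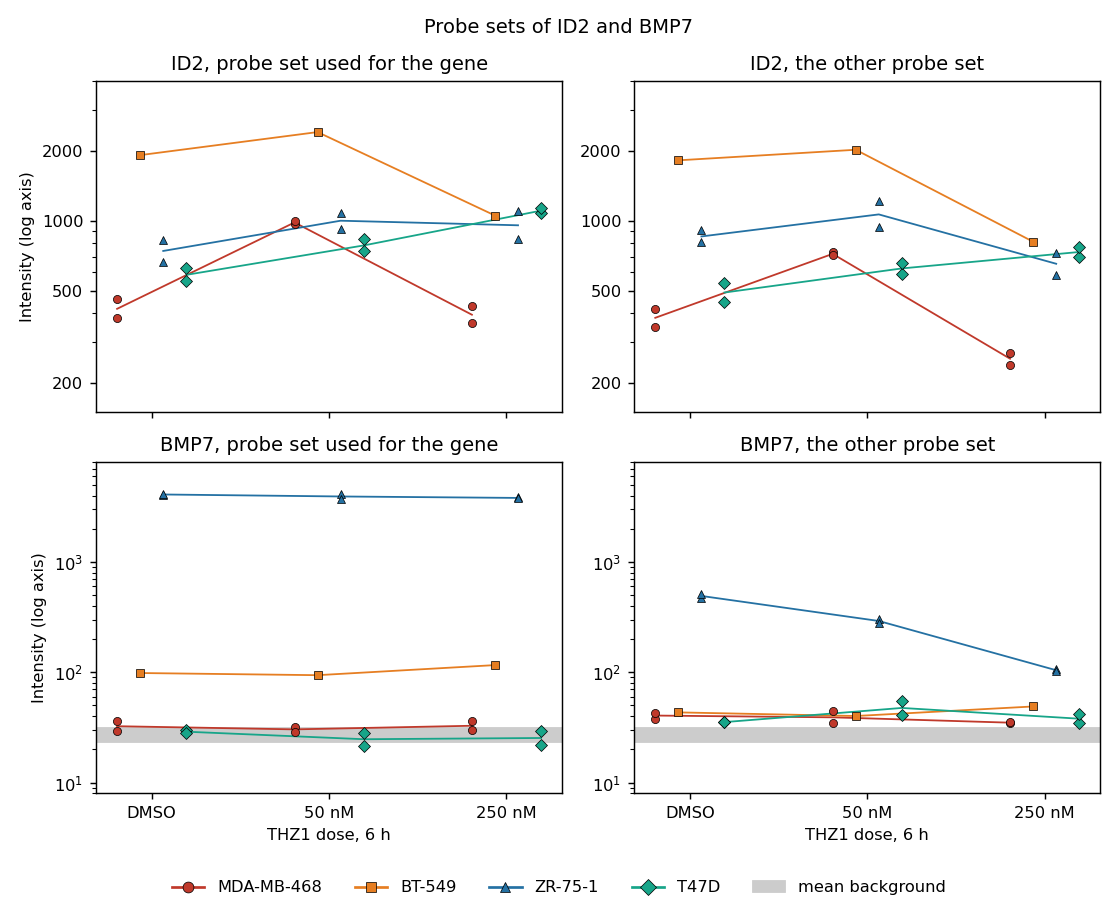
Intensity on each array (points, log axis) and group mean of log2 values (lines) for the probe set used for ID2 and BMP7 (left) and for the other probe set of each gene (right), by THZ1 dose and line. Grey bands show the range of the arrays' mean background. In ZR-75-1 the BMP7 probe set used lay between 3709 and 4154, while the other fell to 106 and 103 at 250 nM, against 469.8 and 515 in DMSO.

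BAMBI, a membrane protein that resembles a type I receptor but lacks the kinase domain, fell at 250 nM in all 3 replicated lines and was lower in BT-549. Intensities in MDA-MB-468 were 682 and 712 in DMSO, 613 and 643 at 50 nM, and 65.7 and 65.5 at 250 nM. In ZR-75-1 they were 2873 and 3251 in DMSO, 2446 and 2493 at 50 nM, and 405 and 329 at 250 nM, and in T47D 808 and 839 in DMSO, 803 and 823 at 50 nM, and 329.6 and 365 at 250 nM. All 250 nM arrays lay well below the DMSO and 50 nM arrays of their line. BAMBI fell by 3.41 ± 0.09 (SE, log2), or 10.6-fold, in MDA-MB-468 (adjusted p = 1.81e-13). The fall was 3.07 ± 0.09, or 8.37-fold, in ZR-75-1 (adjusted p = 2.61e-13), and 2.38-fold in T47D (adjusted p = 1.09e-08). BT-549 had 1227 in DMSO, 1064 at 50 nM and 198 at 250 nM, 6.19-fold lower at 250 nM. At 50 nM the change in ZR-75-1 was -0.31 (adjusted p = 0.0397), a call that ended when each array was centred on its median (adjusted p = 0.117), when ZR-75-1 DMSO replicate 2 was left out (adjusted p = 0.274) and in 9 of the 18 fits that left out 1 array in all. The BAMBI window printed above is the one with 3 copies of GGCGCC, and whether these bear on the fall was not tested.

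SMAD6, which blocks BMP receptors and SMAD1, was among the genes already lower at 50 nM. MDA-MB-468 intensities were 249.8 and 244 in DMSO, 121 and 138 at 50 nM, and 61.2 and 71.5 at 250 nM. T47D had 121 and 117 in DMSO, 58.7 and 59.0 at 50 nM, and 26.0 and 27.1 at 250 nM, and ZR-75-1 had 93.4 and 99.9 in DMSO, 96.0 and 98.7 at 50 nM, and 22.1 and 20.1 at 250 nM. In MDA-MB-468 and T47D each dose lay below the one before, whereas in ZR-75-1 the 50 nM and DMSO arrays overlapped. At 50 nM SMAD6 changed by -0.93 ± 0.11 in MDA-MB-468 (adjusted p = 2.29e-05) and by -1.02 ± 0.11 in T47D (adjusted p = 2.75e-05), with 0.01 in ZR-75-1 (adjusted p = 0.972).

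At 250 nM SMAD6 fell 3.74-fold in MDA-MB-468 (adjusted p = 8.04e-10). The 250 nM arrays of ZR-75-1 and T47D were near background, so the fold there is a bound, set against the arrays' background level. It was at least 3.24-fold lower in ZR-75-1 (adjusted p = 8.07e-11) and at least 4.21-fold lower in T47D (adjusted p = 4.66e-10). BT-549 had 265 in DMSO, 167 at 50 nM and 132 at 250 nM, 2.001-fold lower at 250 nM and so only just past 2-fold. SMAD6 had 3 probe sets. The second brightest fell by 0.83 in MDA-MB-468 at 250 nM (adjusted p = 0.000345) and gave -0.27 in ZR-75-1 and 0.15 in T47D, without passing the test in either. At 50 nM it gave -0.31 in MDA-MB-468 and -0.02 in T47D, neither of which passed. The third, at 42.3 to 67.9 over the 21 arrays, was too dim for the filter and was not tested, so the early fall was seen in 1 of the 2 probe sets tested.

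SMAD7, which inhibits both BMP and TGF-beta receptors, was brightest in BT-549. BT-549 read 279 in DMSO, 215 at 50 nM and 105 at 250 nM, 2.66-fold lower at 250 nM than in DMSO. T47D read 92.6 and 89.9 in DMSO, 75 and 77.2 at 50 nM, and 46.7 and 47.9 at 250 nM, and MDA-MB-468 read 54.1 and 58.0 in DMSO, 46.1 and 54.7 at 50 nM, and 19.2 and 26.2 at 250 nM. ZR-75-1 read 42.6 and 44.9 in DMSO, 55.5 and 57.9 at 50 nM, and 32.6 and 26.9 at 250 nM. The 250 nM arrays were the lowest of each line, and those of MDA-MB-468 and replicate 2 of ZR-75-1 were near background. SMAD7 was at least 2.01-fold lower there (adjusted p = 2.82e-06), with -0.95 ± 0.15 in T47D (adjusted p = 9.97e-05) and -0.56 ± 0.15 in ZR-75-1 (adjusted p = 0.00556). The ZR-75-1 call ended with each array centred on its median (adjusted p = 0.104) and without ZR-75-1 250 nM replicate 2 (adjusted p = 0.0713). Of the 3 SMAD7 probe sets, the second brightest gave -0.22 in MDA-MB-468, -0.22 in ZR-75-1 and -0.10 in T47D, and passed the test in none. The third, at 22.6 to 51.5 over the 21 arrays, was too dim for the filter and was not tested.

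**Figure D3:**
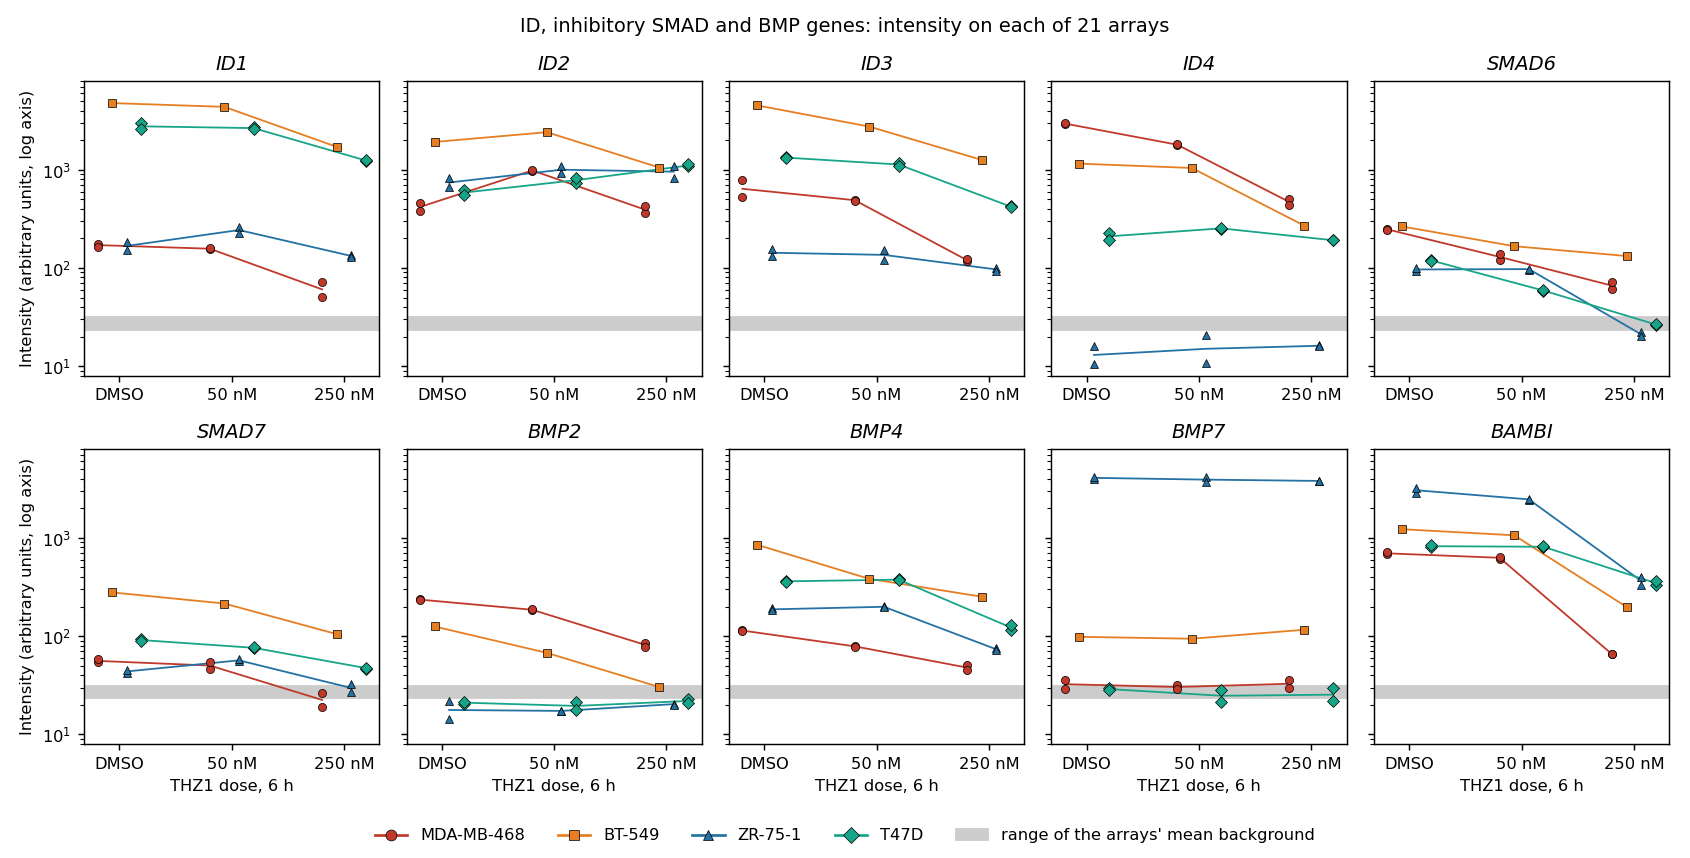
Intensity of each of the 10 genes on each of the 21 arrays (points, log axis) by THZ1 dose, with lines through the group means of log2 values and a grey band for the range of the arrays' mean background. BT-549 has 1 point per dose. BAMBI, ID3 and BMP4 decline at 250 nM in all 4 lines, ID4 declines in MDA-MB-468 and BT-549 and is below the band in ZR-75-1, and BMP2 is below it in ZR-75-1 and T47D.

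ID1 fell at 250 nM in the 3 replicated lines, whose DMSO levels differed widely. T47D intensities were 2978 and 2570.3 in DMSO, 2735 and 2573 at 50 nM, and 1217 and 1265 at 250 nM. MDA-MB-468 had 177 and 165 in DMSO, 156 and 158 at 50 nM, and 71.8 and 51.0 at 250 nM, and ZR-75-1 had 182 and 154 in DMSO, 259 and 228 at 50 nM, and 134 and 130.3 at 250 nM. In all 3 lines both 250 nM arrays lay below both DMSO arrays, and the 50 nM arrays of ZR-75-1 lay above its DMSO arrays. The change at 250 nM was -1.5 ± 0.13 in MDA-MB-468 (adjusted p = 8.59e-08), -1.16 ± 0.13 in T47D (adjusted p = 2.02e-06) and -0.34 ± 0.13 in ZR-75-1 (adjusted p = 0.0358).

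The ZR-75-1 values of ID1 were the least stable. Its change at 250 nM was -0.09 with arrays centred on their medians (adjusted p = 0.56) and 0.17 after quantile normalization (adjusted p = 0.256), and leaving out any 1 of the ZR-75-1 DMSO replicate 1, 250 nM replicate 1 or 250 nM replicate 2 arrays also ended the call (adjusted p of 0.262, 0.0806 and 0.128). The other ID1 probe sets gave -0.53 and -0.78 there (adjusted p = 0.000501 and 4.64e-06). At 50 nM ID1 was higher in ZR-75-1, by 0.54 ± 0.13 (adjusted p = 0.0163), which was lost without DMSO replicate 2 (adjusted p = 0.149) or 50 nM replicate 1 (adjusted p = 0.134) and in both other probe sets (0.27 and 0.20). BT-549 had 4772 in DMSO, 4366 at 50 nM and 1709.6 at 250 nM, 2.79-fold lower at 250 nM.

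ID3 had the same direction in every line at 250 nM. Its intensities were 527 and 777 in DMSO, 495 and 484 at 50 nM, and 117 and 123 at 250 nM in MDA-MB-468. In T47D they were 1354 and 1304 in DMSO, 1168 and 1093 at 50 nM, and 424 and 418 at 250 nM, and in ZR-75-1 154 and 132 in DMSO, 122 and 152 at 50 nM, and 101 and 92.6 at 250 nM. The 250 nM arrays were the lowest of each line, with the smallest gap in ZR-75-1, and MDA-MB-468 had a wide spread between its DMSO arrays. ID3 fell by 2.42 ± 0.14 (SE, log2), or 5.33-fold, in MDA-MB-468 (adjusted p = 8.36e-10) and 3.16-fold in T47D (adjusted p = 9.84e-08). In ZR-75-1 it fell 1.48-fold (adjusted p = 0.0028), a call that ended with arrays centred on their medians (adjusted p = 0.0578) and after quantile normalization (adjusted p = 0.619). BT-549 had 4525 in DMSO, 2749 at 50 nM and 1259 at 250 nM, 3.59-fold lower at 250 nM. At 50 nM in MDA-MB-468 the change was -0.39 ± 0.14 (adjusted p = 0.0692), while the other ID3 probe sets fell by 0.84 and 0.70 (adjusted p = 3.95e-05 and 5.17e-05), and without DMSO replicate 1 the probe set used for ID3 passed too (adjusted p = 0.00194).

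ID4, the family member least tied to BMP targets and one linked to basal mammary cells, was brightest in MDA-MB-468. It read 2934 and 2972 in DMSO, 1767 and 1831 at 50 nM, and 499 and 441 at 250 nM there, each dose below the one before. T47D read 228 and 192 in DMSO, 249 and 257 at 50 nM, and 191 and 192 at 250 nM, with the 250 nM arrays at or just under the lower DMSO array. All 6 ZR-75-1 arrays were near background, between 10.4 and 20.8. In MDA-MB-468 ID4 fell 6.29-fold at 250 nM (adjusted p = 7.2e-08), and its other probe sets fell by 2.28, 1.90 and 1.36 on the log2 scale. At 50 nM the change was -0.71 ± 0.22 (adjusted p = 0.0358), a call that ended with centred arrays (adjusted p = 0.0607) and without any 1 of the 4 MDA-MB-468 arrays involved (adjusted p of 0.12 and 0.11 without DMSO replicates 1 and 2, 0.146 and 0.125 without 50 nM replicates 1 and 2). In T47D the change at 250 nM was -0.13 ± 0.22 (adjusted p = 0.676), and BT-549 had 1154 in DMSO, 1042 at 50 nM and 270.2 at 250 nM, 4.27-fold lower at 250 nM.

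ID2 was the ID gene that rose in some comparisons. In T47D it read 623 and 549 in DMSO, 738 and 831 at 50 nM, and 1081 and 1131 at 250 nM, each dose above the one before. MDA-MB-468 read 379.7 and 459 in DMSO, 968 and 999 at 50 nM, and 362 and 429 at 250 nM, highest at 50 nM, with the 250 nM and DMSO arrays overlapping. ZR-75-1 read 825 and 666 in DMSO, 1085 and 923 at 50 nM, and 1100.1 and 831 at 250 nM, where both treated groups lay above DMSO and overlapped each other. ID2 rose 2.36-fold in MDA-MB-468 at 50 nM (adjusted p = 1.44e-05), and its other probe set rose by 0.91 (adjusted p = 0.000231). At 250 nM in T47D it rose 1.89-fold (adjusted p = 5.43e-05), with 0.58 in the other probe set (adjusted p = 0.00284).

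The probe sets of ID2 parted elsewhere at 250 nM. In ZR-75-1 the probe set used rose by 0.37 ± 0.14 (adjusted p = 0.037), a call lost without DMSO replicate 2 (adjusted p = 0.317) or 250 nM replicate 1 (adjusted p = 0.406), and the other fell by 0.39 (adjusted p = 0.0254). MDA-MB-468 gave -0.08 ± 0.14 (adjusted p = 0.687), and its other probe set fell by 0.59 (adjusted p = 0.00284). At 50 nM T47D gave 0.42 (adjusted p = 0.0742), which passed after quantile normalization (adjusted p = 0.00878). BT-549 had 1918 in DMSO, 2411 at 50 nM and 1054 at 250 nM. From 50 to 250 nM ID2 was 2.50-fold lower in MDA-MB-468 (adjusted p = 1.56e-06) and 1.41-fold higher in T47D (adjusted p = 0.0117). The T47D call between doses ended without 50 nM replicate 1 (adjusted p = 0.103) or 250 nM replicate 2 (adjusted p = 0.0708).

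A fit on the 12 line-by-dose means, in which the 4 lines are the replicates, included BT-549. At 250 nM 6 of the 10 genes were lower and none higher, against 29.9% and 9.48% of all genes. BAMBI changed by -2.59 ± 0.30 (adjusted p = 0.000298), SMAD6 by -1.82 ± 0.26, ID3 by -1.62 ± 0.25, BMP4 by -1.48 ± 0.20, ID1 by -1.12 ± 0.16 and SMAD7 by -1.06 ± 0.14, with adjusted p between 0.00055 and 0.00106 for these others. The 250 nM arrays of SMAD6 in ZR-75-1 and T47D and of SMAD7 in MDA-MB-468 were near background, so the sizes for these genes cannot be read. ID4 (-1.14, adjusted p = 0.0648) and BMP2 (-0.83, adjusted p = 0.0825) missed the threshold, as did ID2 (0.08) and BMP7 (-0.01). ID4 was near background in ZR-75-1, and BMP2 in ZR-75-1 and T47D, so their means include lines where no change can be read. Without ZR-75-1, ID4 gave -1.63 (adjusted p = 0.0203) and BMP2 -1.17 (adjusted p = 0.0397). The count was 6 to 8 when 1 line was left out in turn, and the 8 came without ZR-75-1.

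The size of the response differed between lines, tested on the difference itself. In MDA-MB-468, 7 of the 10 genes changed more negatively at 250 nM than the mean of ZR-75-1 and T47D and none less so, against 5.12% and 13.9% of all genes. The difference was -2.74 ± 0.27 for ID4 (adjusted p = 7.16e-06) and -1.65 ± 0.21 for BMP2 (adjusted p = 6.67e-05), where the other lines were partly or wholly near background. No change in BMP2 can be read in ZR-75-1 or T47D, so its difference restates the fall in MDA-MB-468. No change in ID4 can be read in ZR-75-1, and the size of neither difference can be read. For ID3 the difference was -1.30 ± 0.17 (adjusted p = 8.11e-05) and for BAMBI -1.25 ± 0.11 (adjusted p = 1.53e-06). Most of the BAMBI difference lay with T47D, where BAMBI fell least. MDA-MB-468 was not tested against either line alone. ID1, ID2 and SMAD7 were the other 3. Most of the ID1 difference lay with ZR-75-1, where ID1 fell least. The SMAD7 call was lost in 16 of the 18 fits that left out 1 array. Since the 7 include BMP2 and ID4, part of this count follows from which lines had a readable level. BMP4 (0.20 ± 0.11, adjusted p = 0.221) missed the threshold, which does not show equal responses. SMAD6 missed it too (adjusted p = 0.179), but its 250 nM arrays in ZR-75-1 and T47D were near background, so the size and sign of its difference cannot be read. The second brightest SMAD6 probe set passed (-0.77, adjusted p = 0.0103). Between ZR-75-1 and T47D, 1 gene changed more negatively in ZR-75-1 and 2 less so (19.8% and 2.44% of all genes): BAMBI by -1.82 ± 0.12 (adjusted p = 1.01e-07), and ID3 (1.09 ± 0.20, adjusted p = 0.000805) and ID1 (0.82 ± 0.18, adjusted p = 0.00379).

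With DMSO alone the lines differed strongly in these genes. Compared with the mean of ZR-75-1 and T47D, MDA-MB-468 was lower in 5 genes and higher in 4 (34.4% and 33.1% of all genes). ID4, BMP2, SMAD6 (1.20 log2) and ID3 (0.55) were higher, and BMP7 (-3.41), ID1 (-1.99), BMP4 (-1.19), BAMBI (-1.19) and ID2 (-0.66) were lower, with adjusted p of 0.000731 or less. The calls of BMP7, ID1 and ID3 were not differences from both lines. Mean log2 values of MDA-MB-468 and T47D were 5.02 and 4.85 for BMP7 and 9.32 and 10.4 for ID3. Those of MDA-MB-468 and ZR-75-1 were 7.42 and 7.39 for ID1. For BAMBI the means were 9.44 in MDA-MB-468, 9.69 in T47D and 11.6 in ZR-75-1, so most of its difference lay with ZR-75-1. MDA-MB-468 was not tested against T47D alone. For ID4 the ZR-75-1 arrays and for BMP2 those of both ZR-75-1 and T47D were near background, so no size is given, and for BMP7 both MDA-MB-468 and T47D were close to it. ZR-75-1 was lower than T47D in 6 genes and higher in 3 (37.1% and 25.9% of all genes). BMP7 was higher in ZR-75-1 than in T47D (adjusted p = 2.88e-15), but no fold is given, since the T47D arrays were close to background. BAMBI was 3.71-fold higher in ZR-75-1 (adjusted p = 2.16e-11). ID1 was 16.5-fold lower (adjusted p = 2.94e-13), ID3 9.30-fold lower (adjusted p = 1.17e-11) and ID4 at least 7.72-fold lower (adjusted p = 2.24e-10). The third brightest of the 4 ID4 probe sets gave 0.0053 for this difference (adjusted p = 0.981).

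By level in DMSO, ID1 ran in the order BT-549, T47D, and then MDA-MB-468 and ZR-75-1, whose arrays overlapped. ID3 ran BT-549, T47D, MDA-MB-468, ZR-75-1, and ID4 ran MDA-MB-468, BT-549, T47D, ZR-75-1. ID2 was highest in BT-549 and lowest in MDA-MB-468, with ZR-75-1 above T47D by 0.34 (adjusted p = 0.0432), a call that ended without T47D DMSO replicate 2 (adjusted p = 0.24) or ZR-75-1 DMSO replicate 1 (adjusted p = 0.345). BMP4 and SMAD7 were highest in BT-549, followed by T47D. For SMAD6 the single BT-549 array, at 265, lay close to the MDA-MB-468 arrays, and T47D and ZR-75-1 followed. The difference of ZR-75-1 minus T47D (-0.31, adjusted p = 0.0238) missed the threshold with centred arrays (adjusted p = 0.143), in the second brightest probe set (0.17, adjusted p = 0.362) and with the mean of all probe sets (-0.029, adjusted p = 0.772). BAMBI was highest in ZR-75-1, then BT-549, T47D and MDA-MB-468.

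Across the 12 line-by-dose means, the genes whose log2 pattern was most like each member were named by Pearson's r, as a description in which line differences dominate and points of a line share its DMSO level. They were CDK2 (0.986) and REEP4 (0.984) for ID1, RCL1 (0.916) for ID2, GJC1 (0.968) and PHLDA1 (0.962) for ID3, and CDC42EP3 (0.983) for ID4. PIKFYVE (0.965) was nearest SMAD6, ABL1 (0.970), MTERF3 (0.968) and DUSP6 (0.964) were nearest SMAD7, and IL12A (0.975) was nearest BMP2. ATAD2 (0.950) was nearest BMP4, ABCG2 (0.994) nearest BMP7 and BRPF1 (0.966) nearest BAMBI. Among the 10 genes themselves the highest r was 0.918 for ID3 with SMAD7 and the lowest was -0.835 for ID4 with BMP7.

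The rest of the pathway was read from lists of 95 genes by role, 74 of which were tested. Receptors and co-receptors fell at 250 nM in each replicated line: 5 of 8 tested in MDA-MB-468, 6 of 8 in ZR-75-1 and 5 of 8 in T47D, with none higher and medians of -0.75, -0.98 and -0.70. Among all tested genes 30.3%, 42.8% and 33.7% were lower in these lines, and 9.54%, 9.93% and 9.61% higher. The co-receptor RGMA changed by -2.34, -0.54 and -1.28 on the log2 scale in MDA-MB-468, in ZR-75-1 and in T47D. The type II receptor ACVR2A changed by -2.11, -1.76 and -0.51, and the co-receptor RGMB by -1.38, -1.23 and -0.90. The type I receptor ACVR1 changed by -1.0, -1.47 and -1.36, and all 12 of these values passed the test. Of the 3 SMADs tested, SMAD1 changed by -1.28, -2.01 and -1.52 in the same order of lines, and SMAD5 by -0.76, -1.14 and -0.58. SMAD4, the partner shared with TGF-beta signalling, gave -0.13, 0.24 and 0.16, and passed in ZR-75-1 alone, as higher (adjusted p = 0.0306), though T47D passed too with centred arrays (adjusted p = 0.0277).

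Of 15 tested intracellular regulators of SMAD signalling, 10 fell in MDA-MB-468, 11 in ZR-75-1 and 9 in T47D, with 1 (STUB1) higher in T47D, against 30.3%, 42.8% and 33.7% of all genes lower and 9.61% higher in T47D. RNF111, a ubiquitin ligase that targets SMAD7 and the SKI repressors, changed by -2.44 in MDA-MB-468 and by -2.81 in T47D and was at least 5.96-fold lower in ZR-75-1. In MDA-MB-468 it had already changed by -0.88 at 50 nM (adjusted p = 0.000206). LEMD3, an inner nuclear membrane protein that binds SMADs, changed by -2.42, -2.18 and -1.49 in MDA-MB-468, in ZR-75-1 and in T47D. SMURF2, a ubiquitin ligase for SMADs and receptors, changed by -0.67, -1.30 and -1.03, and ERBIN, a scaffold protein that binds SMADs, by -0.64, -1.13 and -0.49. All values of these 4 genes passed the test.

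Few of the extracellular genes passed the test. Of 12 antagonists and modulators tested, 1 passed in ZR-75-1, FSTL3, which fell by 0.36 (adjusted p = 0.0149), and none passed in MDA-MB-468 or T47D. Of 6 other BMP and GDF ligands, BMP8B changed by -0.53, -0.99 and -0.35, all past the threshold, and AMH rose in ZR-75-1 by 0.47. GDF5, named after its values were seen, was the other ligand that passed, falling in ZR-75-1 (log2 change -0.55, adjusted p = 0.0235). With arrays centred on their medians 3 antagonists passed as higher in MDA-MB-468 and 3 in ZR-75-1, and the FSTL3 call and the T47D call of BMP8B ended, so no direction is given for these lists. Among 11 other genes known as BMP targets, 5 fell in MDA-MB-468, 6 fell and 1 rose in ZR-75-1, and 4 fell and 2 rose in T47D. Shares of all genes were 30.3%, 42.8% and 33.7% lower, and 9.54%, 9.93% and 9.61% higher, so these counts lay near the background. RUNX2, a transcription factor of bone, changed by -1.43 in MDA-MB-468 and -2.25 in T47D and was at least 4.28-fold lower in ZR-75-1. GATA3, the luminal transcription factor, changed by -1.40, -1.64 and -0.34, the last call ending with centred arrays (adjusted p = 0.123).

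**Figure D4:**
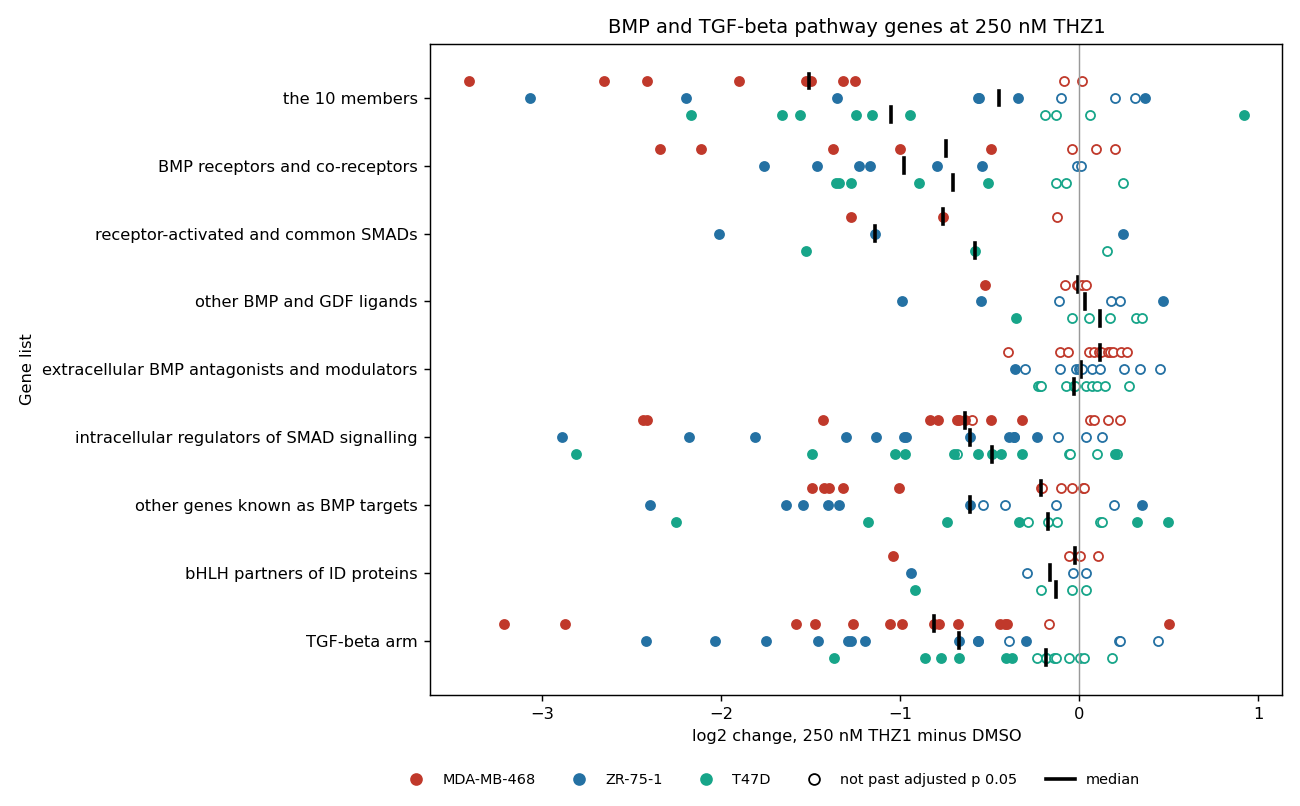
Log2 change at 250 nM THZ1 against DMSO (horizontal axis) of the 10 genes and of the tested genes of each list (rows), by line (colour). Filled points passed an adjusted p of 0.05 by limma, open points did not, and black bars are list medians. Receptors, SMADs, intracellular regulators and the TGF-beta arm lie mostly left of 0, with medians of -0.75, -0.76, -0.64 and -0.81 in MDA-MB-468, and antagonists lie around 0, with a median of 0.11.

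The lists were also counted at 50 nM. Of the 74 tested pathway genes, MDA-MB-468 had 9 lower and 1 higher, ZR-75-1 had 4 lower and none higher, and T47D had 5 lower and 1 higher, each a smaller share than the 14.6%, 5.68% and 7.56% of all genes lower and 4.42%, 2.79% and 1.99% higher. At 250 nM the counts were 37 lower and 1 higher, 40 and 3, and 28 and 3, against 30.3%, 42.8% and 33.7% of all genes lower and 9.54%, 9.93% and 9.61% higher. In MDA-MB-468, SMAD1 and SMAD5 had already changed at 50 nM, by -0.48 and -0.39, and both calls ended with centred arrays (adjusted p = 0.0872 and 0.0886).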

How the data were processed

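RNA of 4 lines was measured on Affymetrix PrimeView arrays. The authors deposited intensity values made with MAS5, per the submitters' processing notes. The sources used here do not give their scaling between arrays, or what use was made of the RNA spike-ins that, per the labels' protocols, were added by cell number. Values were floored at 1 and taken to log2. Of 49395 probe sets, 44994 had 1 gene symbol, 1832 several and 2569 none; 44967 symbols were updated through RefSeq. Each gene was read from its probe set with the highest mean, and further probe sets of the 10 genes that passed the same filter were fitted too. A gene was tested where the mean of at least 1 group was at or above 5.84 on the log2 scale, the median of all values, and all 10 passed. Tests used limma 3.58.1 (R 4.3.3; lmFit, eBayes with trend), with a mean for each of 9 groups over 18 arrays, or with line and dose over 12 line-by-dose means. Adjusted p-values are Benjamini-Hochberg over the 12644 tested genes. The number of arrays limits the precision. The fit was tested on simulated data. Named pathway genes are up to 4 per list by the mean moderated statistic at 250 nM, without regard to direction. The genes and lists were chosen with earlier results of these data known. Replicate numbers were not used to pair the arrays in the main fit. Over 36 pairs of groups, deviations correlated at -0.22 to 0.29, 5 of them over 0.1. These were 3 of the 9 pairs within a line and 2 of the 27 between lines, so pairing within a line is not excluded. Some genes of the lists are not reported here. Alternatives were other scalings, floors, filters, probe sets, variance models and sets of arrays.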

Additional observations from a re-analysis of the deposited data

Results flagged for a closer look

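Each value here is a difference between lines in the log2 change at 250 nM THZ1, tested as a difference by limma. In MDA-MB-468 minus the mean of ZR-75-1 and T47D, it was -0.75 ± 0.16 (SE) for ID1 (adjusted p = 0.00338), -0.73 ± 0.17 for ID2 (adjusted p = 0.00721) and -1.30 ± 0.17 for ID3 (adjusted p = 8.11e-05). It was -2.74 ± 0.27 for ID4 (adjusted p = 7.16e-06), with ZR-75-1 near background, and -1.65 ± 0.21 for BMP2 (adjusted p = 6.67e-05), with both other lines near background. The size of neither can be read, and the BMP2 difference restates the fall in MDA-MB-468. BAMBI differed by -1.25 ± 0.11 (adjusted p = 1.53e-06), which lay mostly with T47D, where BAMBI fell least. SMAD7 differed by -0.57 ± 0.19 (adjusted p = 0.0465), with the MDA-MB-468 arrays at 250 nM near background, and its adjusted p was above 0.05 in 16 of the 18 fits that left out 1 array and was 0.0612 with centred arrays. The ID1 difference lay mostly with ZR-75-1, where ID1 fell least, and missed the threshold in its other probe sets (-0.29 and -0.28, adjusted p = 0.169 and 0.146). MDA-MB-468 was not tested against either line alone.

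In ZR-75-1 minus T47D, the difference was 0.82 ± 0.18 for ID1 (adjusted p = 0.00379), 1.09 ± 0.20 for ID3 (adjusted p = 0.000805) and -1.82 ± 0.12 for BAMBI (adjusted p = 1.01e-07). ID1 and ID3 therefore fell less in ZR-75-1 than in T47D, and BAMBI fell more.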

How the results depend on the processing

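For the members that passed in the main analysis, 2280 of 2359 values under other settings kept direction and call, 77 kept direction but missed the threshold and 2 turned. Many of these settings could not change the log2 change itself. Examples are leaving out an array of a line not compared, or changing only the filter or the variance model. Direction was fixed in advance there, so the share kept overstates how stable the values are. Counts of members called were compared as totals of lower and higher, so a shift between directions did not register. In ZR-75-1 at the higher dose against DMSO, 6 lower and 1 higher became 3 and 3 with arrays centred on their medians, as given above. That shift left the total within 1.5 times, so the total does not show that result to be stable. The totals stayed within 1.5 times except in 3 comparisons. In ZR-75-1 at 50 nM the count of 2 became 1 with arrays centred on their medians, with eBayes without trend, and with only that line's arrays, and was 0 to 3 when 1 array was left out. The 0 came without ZR-75-1 DMSO replicate 2. In T47D at 50 nM the count of 1 became 2 with centred arrays, quantile normalization or the mean of all probe sets, 3 with only that line's arrays, and 1 to 2 with 1 array left out. Between ZR-75-1 and T47D the count of 3 became 5 with the mean of all probe sets. The causes were not tested.

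ID2 in MDA-MB-468 at 250 nM turned to 0.12 with centred arrays, 0.11 with quantile normalization, and lay between -0.22 and 0.053 when 1 array was left out, positive without 250 nM replicate 1 or DMSO replicate 2. BMP7 in ZR-75-1 turned to 0.15 at 250 nM with centred arrays and at 50 nM lay between -0.14 and 0.021 with 1 array left out, positive without 50 nM replicate 2. Under quantile normalization ID1 in ZR-75-1 was 0.17 and ID4 in T47D 0.18 at 250 nM. ID2 in ZR-75-1 at 250 nM was -0.012 with the mean of its probe sets.

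Fitting further probe sets singly was chosen after seeing the data. It turned ID2 in ZR-75-1 at 250 nM (-0.39), ID4 in T47D at 250 nM (0.058) and ID4 in DMSO between ZR-75-1 and T47D (0.0053). The second brightest SMAD6 probe set gave 0.15 (250 nM against DMSO) and 0.16 (250 against 50 nM) in T47D and 0.17 in DMSO between ZR-75-1 and T47D. The second brightest SMAD7 probe set gave 0.31 in MDA-MB-468 and 0.057 in ZR-75-1 for 250 against 50 nM.

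Differences that had missed the threshold turned more often. Over the 4 lines at 250 nM, BMP7 was 0.15 with centred arrays, 0.024 with quantile normalization, 0.021 without ZR-75-1 and 0.0496 without T47D. ID2 there was -0.15 with the mean of all probe sets, -0.00997 without ZR-75-1 and -0.19 without T47D. SMAD6 in ZR-75-1 at 50 nM was -0.0028 with the mean of all probe sets, -0.10 in the second brightest probe set and -0.036 to 0.061 with 1 array left out. SMAD6 in MDA-MB-468 minus the mean of ZR-75-1 and T47D was -0.044 with 16 added before log2, -0.11 with the mean of all probe sets and -0.77 in the second brightest probe set.

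Scaling moved the share of all genes higher. At 250 nM 1206 genes were higher and 3834 lower in MDA-MB-468 as deposited, against 3479 and 2745 with centred arrays, where the median of all genes moved to 0.14 from -0.07. In ZR-75-1 1256 were higher and 5406 lower, against 3625 and 3986 (median 0.08 against -0.18), and in T47D 1215 and 4256, against 2453 and 3279. In MDA-MB-468 at 50 nM 559 were higher and 1844 lower, against 1605 and 1053. The replicate block left the counts of members called within 1.5 times, and ended 1 member's call, ID2 in DMSO between ZR-75-1 and T47D (0.34, adjusted p = 0.0503). Genes near background limit what SMAD6, SMAD7, BMP2 and ID4 can show.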

Other observations

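The TGF-beta arm of the pathway, 15 genes listed by role, was counted at 250 nM as well: 13 were lower and 1 higher in MDA-MB-468, 11 and none in ZR-75-1, and 6 and none in T47D, with medians of -0.81, -0.67 and -0.19. Among all tested genes 30.3%, 42.8% and 33.7% were lower and 9.54%, 9.93% and 9.61% higher, so the T47D count lay near the background. With arrays centred on their medians the counts were 10 lower and 1 higher, 9 and 3, and 5 and none. TGIF1, a homeodomain repressor of SMAD-driven transcription, changed by -2.87, -1.75 and -0.86 on the log2 scale in MDA-MB-468, in ZR-75-1 and in T47D (limma, adjusted p = 3.38e-13, 3.01e-11 and 2.89e-07). PMEPA1, a membrane protein that limits SMAD activation, changed by -1.58, -2.42 and -0.67. INHBB, a subunit of activin B, changed by -0.99, -1.20 and -0.77, and all values of these 3 genes passed the test. The gene that rose in MDA-MB-468 was TGFB1, the ligand, by 0.50 (adjusted p = 0.0337).

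Of the bHLH genes tested, TCF3, TCF12 and TCF4 did not pass the test at 250 nM in any replicated line as deposited, and with centred arrays 1 of them passed as higher in MDA-MB-468 and 1 in ZR-75-1. HES1, a bHLH repressor that responds to NOTCH, changed by -1.04, -0.94 and -0.92 in the same order of lines (adjusted p = 3.49e-07, 6.6e-07 and 1.76e-06). In BT-549 it read 125 at 250 nM, against 72.8 in DMSO, on 1 array each.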
